A study of Rattus norvegicus with 4 samples.

Results

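The rat histocompatibility complex, named RT1, was followed in irradiated footpad skin through 17 gene rows out of 18957 rows in all. The rows were those whose symbol begins with RT1-, 15 in number, together with Cd74 and B2m. All 17 carried the same symbol under their gene identifier in the RefSeq gene table of GRCr8. Of these, 16 were counted in the day 0 library, 13 on day 3, 12 on day 6 and 15 on day 9. Only 9 rows reached 50 counts in some library, and the other 8 stayed below that.

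Hindlimb footpad skin came from Sprague Dawley rats, an outbred stock, and each collection day (0, 3, 6 and 9) was measured with 1 library. By the protocol in the labels, the skin received 10 Gy in each of 4 sessions, on days 1, 2, 4 and 5, from 9 MeV electrons at 500 cGy/min. The day 0 library therefore preceded irradiation, the day 3 library followed 2 sessions, and the day 6 and day 9 libraries followed all 4. The sample descriptions disagree with this in places: they put the collection of the first sample on day 1 and name 1 irradiation day for each later sample (days 2, 4 and 5). The labels give no age, sex, genotype or number of animals for a library. Days and animals cannot be told apart with 1 library a day, and no test across animals was possible. Every interval printed here is an exact 95% interval for counting error only.

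Class I molecules pair a heavy chain with beta-2-microglobulin and show peptides made inside the cell to cytotoxic T cells. Nearly all nucleated cells carry them. Class II molecules pair an alpha and a beta chain and show peptides taken up from outside to helper T cells. In skin they are carried mainly by Langerhans cells, other dendritic cells and macrophages. The invariant chain, Cd74, keeps class II molecules closed until they reach endosomes, where the DM molecule helps to load the peptide. The histocompatibility region is among the most variable parts of a mammalian genome, so outbred animals often carry different alleles.

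Each transcript was counted through 21-base tags that begin at a CATG site, and a row's count is the sum of its tags. Position 1 is the site nearest the 3' end of the transcript. The tags of 2 class II rows are shown first because their copies stood in different tags in different libraries. Capitals mark the base that differs between the forms of a tag, or the CATG site where a row has 1 form at that position.
RT1-Db1, position 1, T form: catgggggatagtgTataaga
RT1-Db1, position 1, C form: catgggggatagtgCataaga
RT1-Db1, position 3, T form: catgtcctgcttggccTacat
RT1-Db1, position 3, C form: catgtcctgcttggccCacat
RT1-Ba, position 1: CATGcccttggaattctcctc
RT1-Ba, position 3: CATGtcagagctgacagagac
Counted from 1 at the 5' end of the tag, the forms of RT1-Db1 differed by T15C at position 1 and by T17C at position 3.

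RT1-Db1, the beta chain of the D class II molecule, had its position 1 copies in the T form on day 0 (145 copies of T, 0 of C). On day 3 it had 0 copies of T and 105 of C. On day 6 it had 112 of T and 0 of C, and on day 9 it had 182 of T and 117 of C. The T form was thus counted in every library except day 3, and the C form on days 3 and 9 only. A count of 0 among the 283 copies of the row on day 3 allows a share of up to 1.3% for the T form. At position 3 the C form was counted on day 0 alone (48 copies), beside a T form with 58, 176, 64 and 233 copies on days 0, 3, 6 and 9.

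RT1-Ba, the alpha chain of the B class II molecule, differed between libraries in the position of its tag. Its tag at position 3 had 222, 324, 3 and 244 copies on days 0, 3, 6 and 9. Its tag at position 1 had 0, 0, 171 and 216 copies. The day 0 and day 3 libraries held only the position 3 tag, the day 6 library held nearly only the position 1 tag (98.3% of the row, with an exact interval of 95 to 99.6%), and the day 9 library held both (46.7% at position 1). Day 9 was also the library that held both position 1 forms of RT1-Db1.

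**Figure D1:**
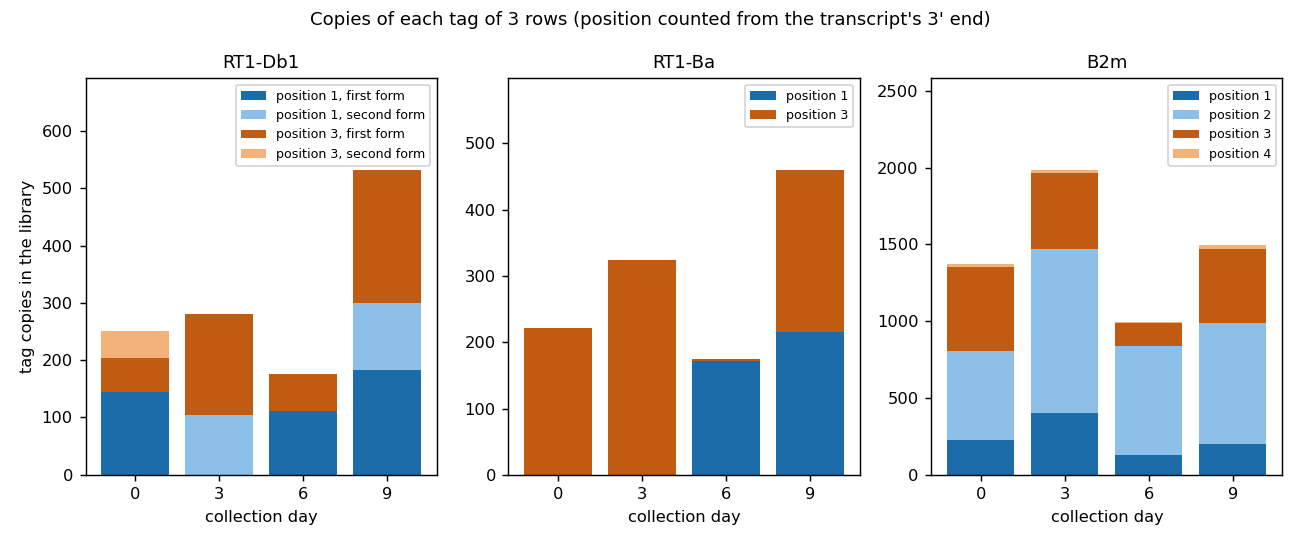
Stacked bars give the copies of each tag of RT1-Db1, RT1-Ba and B2m (vertical axis, copies in the library) on each collection day (horizontal axis), with colours for the position of the tag and its form. For RT1-Db1 the first form is T and the second is C. RT1-Ba stood in the position 3 tag on days 0 and 3 (222 and 324 copies), in the position 1 tag on day 6 (171 copies) and in both on day 9.

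To set these rows against the rest, rows with at least 30 counts in each library were searched for a tag with at least 30 copies in 1 library and at most 1 copy in another, a rule chosen after the values were seen. It held for 78 of 4982 rows (1.57%) and for 2 of the 7 member rows with enough counts, RT1-Db1 and RT1-Ba. The partner chain of RT1-Ba was found outside the members, as LOC688090, which the files describe as the B-1 beta chain. It was chosen after its values were seen. Its counts were 87, 2, 63 and 88 on days 0, 3, 6 and 9, and its main tag had 0 copies on day 3, the library that also lacked the T form of RT1-Db1.

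In the sum of their tags, the member rows RT1-Db1, RT1-Ba and RT1-Da were lowest in the day 6 library and highest in the day 9 library, an order that LOC688090 did not share. RT1-Db1 had 253, 283, 176 and 534 counts on days 0, 3, 6 and 9. RT1-Ba had 222, 324, 174 and 463 counts. RT1-Da, the alpha chain of the D molecule, had 46, 40, 16 and 51 counts. The order of day 6 as lowest and day 9 as highest was shared by these 3 rows, but for RT1-Da the day 9 count did not differ from day 0 beyond counting error (1.16-fold, 0.766 to 1.77). In bulk skin, fewer cells of a type and less RNA per cell cannot be told apart.

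RT1-DMa and RT1-DMb, the chains of the DM peptide editor, did not share this order. RT1-DMb had 77, 120, 31 and 57 counts on days 0, 3, 6 and 9, so that day 3 was highest and day 6 lowest. RT1-DMa had 48, 60, 52 and 49 counts, and its 4 libraries did not differ beyond counting error in any of the comparisons made. RT1-DOa, a chain of the DO molecule that inhibits DM, had 2, 0, 0 and 3 counts, too few to compare. Cd74 had 3, 11, 0 and 2 counts. These Cd74 copies came mostly from a tag at position 2 (9 of the 11 on day 3), and no tag at position 1 was counted under the gene. With so few copies, the differences between the libraries in Cd74 are not read.

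RT1-A3, a class I heavy chain of the RT1-A group, had 775, 489, 178 and 380 counts on days 0, 3, 6 and 9. Day 0 was highest and day 6 lowest, with days 3 and 9 between them. Nearly all copies (99.5% on day 0) stood in this 1 tag at position 2, with CATG in capitals.
RT1-A3, position 2: CATGttccctgtgattctatg
Class I heavy chain genes are near copies of each other, so the copies may not all come from RT1-A3. An allele of RT1-A3 without this tag would not be counted in it. Whether the libraries differed in such alleles was not tested. RT1-A1 and RT1-A2, its closest relatives by name, were not analysed here.

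The class Ib heavy chains, which are less variable relatives with special ligands or receptors, were counted at lower numbers. RT1-S3 had 37, 67, 33 and 29 counts on days 0, 3, 6 and 9. RT1-T24-3 had 44, 80, 46 and 33 counts. In both rows the day 3 library was highest. RT1-N3 had 26, 20, 16 and 7 counts in 2 forms of its position 1 tag, C17A apart. The C form had 12, 14, 16 and 7 copies and the A form 14, 6, 1 and 0 copies, so no copy of the A form was counted on day 9, which for 7 copies allows a share of up to 41%. RT1-CE7, a class I heavy chain of another group, had 16, 6, 0 and 9 counts, again in 2 forms (C9A), of which the C form had 13, 0, 1 and 7 copies. RT1-M3-1, which binds formylated peptides, had 3 to 9 counts. RT1-CE13, RT1-T24-2 and RT1-T24-4 had at most 3 counts in any library.

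B2m, the light chain shared by class I molecules, had 1378, 1998, 1011 and 1500 counts on days 0, 3, 6 and 9. Day 3 was highest and day 6 lowest. Its copies stood in 3 main tags, which are shown because they did not move alike.
B2m, position 1: CATGtaaagtactcactcctg
B2m, position 2: CATGgctacttctgctttgtt
B2m, position 3: CATGttttaaaaaaaattgga
The position 1 tag had 227, 403, 126 and 202 copies on days 0, 3, 6 and 9. The position 2 tag had 578, 1064, 711 and 785 copies. The position 3 tag had 551, 497, 150 and 485 copies. The position 2 tag made up 41.9% of the row on day 0 and 70.3% on day 6, while the position 3 tag made up 40.0% and 14.8%.

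**Figure D2:**
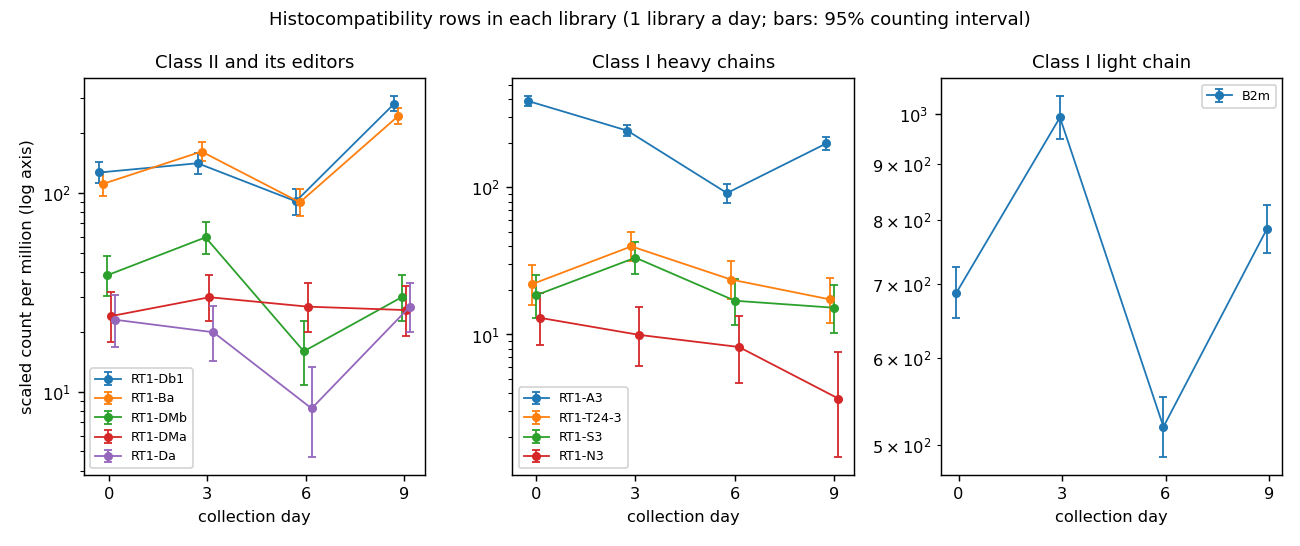
Points give CPM, the counts scaled to the size of the library (log axis), of 10 rows on each collection day, with 95% counting intervals as bars and lines joining the libraries of a row. Points of a panel are shifted sideways so that bars can be seen. RT1-Db1 and RT1-Ba run close together and peak on day 9 (534 and 463 counts), RT1-A3 is highest on day 0 (775 counts) and B2m on day 3 (1998 counts).

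A row was called higher or lower only when its scaled counts were 2-fold or more apart, the interval of that ratio left out 1, and the larger of its 2 counts was 50 or more. Rows with that count are termed eligible. Against day 0, the day 3 library had 0 of 8 eligible member rows past this size rule, where 877 of all 5342 eligible rows (16.4%) passed, 8.54% higher and 7.88% lower. B2m was 1.44-fold (1.35 to 1.55) higher on day 3, RT1-Ba 1.45-fold (1.22 to 1.73) higher and RT1-DMb 1.55-fold (1.16 to 2.09) higher. RT1-T24-3 was 1.80-fold (1.24 to 2.68) higher and RT1-S3 1.79-fold (1.19 to 2.77) higher. RT1-A3 was 1.59-fold (1.42 to 1.79) lower, the only eligible member with an interval wholly below 1. RT1-Db1 was 1.11-fold (0.936 to 1.32) higher, but its positions went apart. Position 1, both forms summed, was 1.41-fold (1.09 to 1.83) lower, and position 3 was 1.67-fold (1.31 to 2.15) higher. Tags were called opposite where, of tags with at least 100 copies, 1 passed the size rule and another of the same row went the other way with an interval that left out 1. This held for 8.80% of 216 rows with at least 2 such tags, and for 1 of 2 members, RT1-Db1. The median log2 ratio was 0.53 over the 8 member rows and -0.05 over all eligible rows.

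Day 6 against day 0 gave 0 members higher and 2 lower among 6 eligible rows, beside 7.48% higher and 13.1% lower (20.6% in all) among all 5296. RT1-A3 was 4.22-fold (3.59 to 5.01) lower and RT1-DMb was 2.39-fold (1.57 to 3.79) lower. RT1-Da, at 2.74-fold (1.55 to 5.28) lower, was short of 50 counts. RT1-Db1 was 1.40-fold (1.15 to 1.70) lower and RT1-Ba 1.24-fold (1.01 to 1.52) lower, the latter as a sum of tags that replaced each other. B2m was 1.32-fold (1.22 to 1.44) lower in sum. Its position 3 tag was 3.56-fold (2.97 to 4.30) lower and its position 2 tag 1.27-fold (1.13 to 1.42) higher, so no single direction holds for its tags. Opposite tags were found in 34 of 238 rows (14.3%) in this comparison, and in both of the members that could show them, B2m and RT1-Ba. The median log2 ratio was -0.44 over the 6 member rows and 0.03 over all.

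The day 6 library also stood apart in muscle. Rows for skeletal muscle summed to 2271, 4742, 0 and 4388 CPM on days 0, 3, 6 and 9, with all 9 rows found at 0 on day 6. The part of this difference in the day 6 values of the histocompatibility rows was not tested. Over all rows, tags at position 2 held 13.2, 11.1, 12.1 and 10.6% of gene counts on days 0, 3, 6 and 9, and tags at position 3 held 3.86, 3.69, 3.89 and 3.85%.

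Day 9 against day 0 gave 2 members higher, RT1-Db1 and RT1-Ba, and 0 lower among 6 eligible rows, beside 10.7% higher and 10.4% lower (21.1% in all) among all 5345. RT1-Db1 was 2.21-fold (1.90 to 2.58) higher, and both of its positions gave this direction, at 2.13-fold (1.75 to 2.62) for position 1 and 2.30-fold (1.83 to 2.93) for position 3. RT1-Ba was 2.19-fold (1.86 to 2.58) higher in sum. Its position 3 tag alone, which both libraries held, was 1.15-fold (0.958 to 1.39) higher, and the excess stood in the position 1 tag that day 0 lacked. RT1-A3 was 1.94-fold (1.72 to 2.20) lower, just short of 2-fold. B2m was 1.14-fold (1.06 to 1.23) higher, and RT1-DMb 1.28-fold (0.902 to 1.85) lower. Opposite tags were found in 4.41% of 227 rows and in 0 of 3 members. The median log2 ratio was 0.20 over the 6 member rows and -0.01 over all. These 3 comparisons share the day 0 library.

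From day 3 to day 6 the sum of all 17 rows was 1.95-fold (1.84 to 2.06) lower, from 3502 to 1738 counts. B2m alone held 1998 and 1011 of these counts, so the sum mostly follows that row. By the rule 0 of 8 eligible members were higher and 2 lower, beside 2.88% and 6.74% (9.63% in all) of 5101 rows. RT1-DMb was 3.70-fold (2.5 to 5.75) lower and RT1-A3 2.65-fold (2.23 to 3.17) lower. B2m was 1.91-fold (1.77 to 2.06) lower, and here all 3 main tags were lower. RT1-Ba was 1.80-fold (1.49 to 2.18) lower and RT1-Db1 1.55-fold (1.28 to 1.89) lower, with RT1-Db1 at 2.67-fold (2.01 to 3.64) lower by position 3 and 1.10-fold (0.838 to 1.45) higher by position 1. Opposite tags were found in 5.74% of 209 rows and in 2 of 3 members, RT1-Db1 and RT1-Ba. The median log2 ratio was -0.89 over the 8 member rows and 0.05 over all.

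From day 6 to day 9 the direction turned for the rows named in the comparison of day 6 with day 3, but not for all members. Of 7 eligible members 4 were higher and 0 lower, beside 10.0% and 4.37% (14.4% in all) of 5127 rows. The sum of the 17 rows was 1.84-fold (1.73 to 1.95) higher, from 1738 to 3129 counts, of which B2m alone held 1011 and 1500. RT1-Da was 3.18-fold (1.82 to 6.11) higher, RT1-Db1 3.09-fold (2.60 to 3.69) higher, RT1-Ba 2.71-fold (2.27 to 3.25) higher and RT1-A3 2.17-fold (1.82 to 2.62) higher. B2m was 1.51-fold (1.40 to 1.64) higher and RT1-DMb 1.86-fold (1.19 to 3.00) higher, both short of the rule. RT1-T24-3 was 1.36-fold (0.855 to 2.21) lower, RT1-S3 1.11-fold (0.657 to 1.91) lower and RT1-N3 2.16-fold (0.873 to 6.44) lower. RT1-DMa was 1.04-fold (0.691 to 1.57) lower, and all of these intervals held 1. For RT1-Db1 position 1 gave 2.71-fold (2.18 to 3.41) and position 3 gave 3.69-fold (2.80 to 4.97). For RT1-Ba the position 1 tag, held by both libraries, was 1.29-fold (1.05 to 1.58) higher, less than the sum. Opposite tags were found in 8.52% of 223 rows and in 0 of 3 members. The median log2 ratio was 1.12 over the 7 member rows and -0.02 over all.

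**Figure D3:**
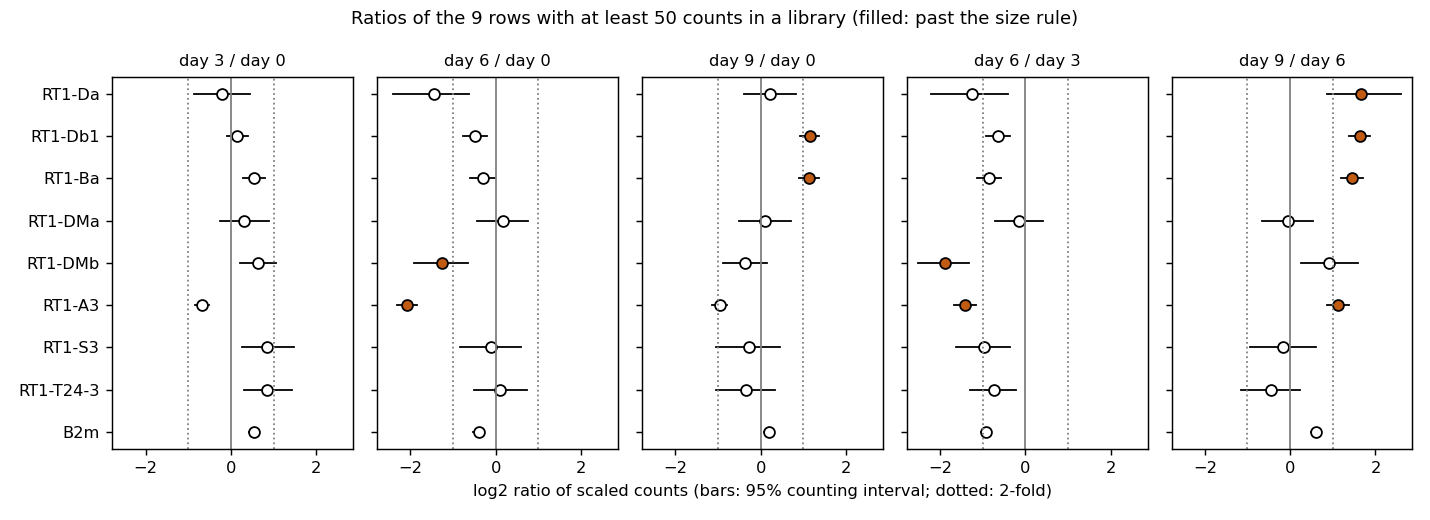
Each panel gives 1 comparison of days. Points are log2 ratios of scaled counts for the 9 rows with at least 50 counts in a library, bars are 95% counting intervals, dotted lines mark 2-fold, and filled points pass the size rule. Filled points lie left of 0 for RT1-DMb and RT1-A3 in both comparisons of day 6 with an earlier day, and right of 0 for RT1-Db1 and RT1-Ba in both comparisons of day 9.

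Class I and class II rows had different profiles in sum. The 7 class II rows, Cd74 included, summed to 651, 838, 449 and 1159 counts on days 0, 3, 6 and 9, and were 1.87-fold (1.70 to 2.06) higher on day 9 than on day 0. The 9 class I heavy chain rows summed to 906, 666, 278 and 470 counts and were 1.84-fold (1.64 to 2.06) lower on day 9 than on day 0. RT1-A3 held most of the class I sum, and RT1-Db1 and RT1-Ba most of the class II sum, so the sums follow these rows. The class I sum thus also carries the limits given for the single tag of RT1-A3. RT1-S3 and RT1-T24-3 were higher on day 3 than on day 0, where the class I sum was lower. RT1-Da, RT1-DMa and RT1-DMb did not differ between day 9 and day 0 beyond counting error.

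The genes nearest to a member in pattern were ranked by the distance between centred log2 scaled counts over the 4 libraries, among 3938 rows with a mean of at least 50 counts. For B2m they were Ppp1r7, Rchy1, Ppm1b, Lgals8 and Fn1, at distances of 0.106 to 0.157 log2 units. For RT1-Db1, chosen for this after its values were seen, RT1-Ba ranked 4, at 0.323. For RT1-A3, likewise, they were led by Surf1, at 0.0997. Only 4 libraries make up a profile. Cd74 had too few counts for a profile.

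Among genes that supply and load class II molecules, some endosomal proteases were higher in the day 3 library. Of 13 rows found out of 16 on the list, 10 were eligible for day 3 against day 0, and 5 were higher and 0 lower, beside 8.54% and 7.88% of all rows. Ctsh, cathepsin H, had 229, 722, 556 and 654 counts and was 3.13-fold (2.70 to 3.66) higher on day 3. Ctsl1, cathepsin L, had 447, 1269, 994 and 809 counts and was 2.82-fold (2.53 to 3.15) higher. Ctss, cathepsin S, which cuts the invariant chain, had 116, 261, 237 and 190 counts and was 2.23-fold (1.79 to 2.81) higher. Ctsz, another cathepsin, had 26, 66, 38 and 49 counts and was 2.5-fold (1.58 to 4.14) higher, and Cd63, a protein of late endosomes, also passed. The proteases Ctsb at 1.47-fold (1.35 to 1.61), Ctsd at 1.10-fold (0.961 to 1.26) and Lgmn at 1.62-fold (1.08 to 2.5) did not pass. On day 6 against day 0, 3 of 8 were higher beside 7.48% of all rows, and on day 9 2 of 9 beside 10.7%, with 0 lower on either day. Lgmn, or legumain, had 39, 64, 11 and 61 counts and was 5.42-fold (2.94 to 11.8) lower on day 6 than on day 3. The summed level of the list was highest on day 3 (2867 CPM) and was 2389 CPM on day 9. Ciita, the master regulator of class II genes, had 7, 4, 0 and 4 counts, too few to compare.

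Genes that cut, carry and load class I peptides showed no common direction. Of 12 rows found out of 16, 7 were eligible for day 3 against day 0, and 0 were higher and 1 lower, beside 8.54% and 7.88% of all rows. Calr, the chaperone calreticulin, had 1481, 725, 782 and 612 counts and was 2.05-fold (1.88 to 2.25) lower on day 3. Pdia3, its partner in loading, had 500, 324, 166 and 302 counts and was 2.92-fold (2.45 to 3.51) lower on day 6 than on day 0. Erap1, which trims peptides in the endoplasmic reticulum, had 47, 86, 78 and 124 counts and was 2.75-fold (1.96 to 3.96) higher on day 9. Psmb8, a subunit of the immunoproteasome, had 32, 62, 17 and 29 counts and was 3.45-fold (2.03 to 6.43) lower on day 6 than on day 3. Its partner Psmb9 had 12, 16, 5 and 8 counts. Tap1, a subunit of the peptide transporter, had 22, 46, 47 and 46 counts, short of the rule.

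Interferons are known to raise both classes of genes in many cells. Of 17 interferon signalling and response rows found out of 24, 6 were eligible for day 3 against day 0, and 2 of them, Irf7 and Ifit2, were higher and 0 lower, beside 8.54% and 7.88% of all rows. Irf7, a regulator of interferon genes, had 18, 95, 36 and 21 counts, and Ifit2, an interferon-induced protein, had 25, 63, 39 and 41. Irf1, which acts on class I promoters, had 16, 22, 19 and 32 counts. Ifngr2, a chain of the interferon gamma receptor, had 44, 57, 25 and 77 counts and was 3.10-fold (1.98 to 5.15) higher on day 9 than on day 6. In that comparison it was 1 of 4 eligible rows of this list to be higher, and 0 were lower, beside 10.0% and 4.37% of all rows. The part of interferon in the values of the histocompatibility rows was not tested.

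Markers of cells that carry class II molecules moved between the libraries as well. Macrophage markers (11 rows found of 14) summed to 406, 1010, 713 and 700 CPM on days 0, 3, 6 and 9, with 5 of 8 eligible rows higher and 0 lower on day 3, beside 8.54% and 7.88% of all rows. Cd163, a scavenger receptor of macrophages, had 22, 173, 110 and 76 counts. Aif1, a calcium-binding protein of macrophages, had 85, 436, 161 and 204 counts, and Cd68 had 64, 178, 161 and 86. Markers of Langerhans and other dendritic cells (7 of 12) summed to 90.8, 105, 54.5 and 92.2 CPM, and most of that was Epcam, which epithelium also makes. Clec10a, a lectin of dendritic cells and macrophages, had 40, 67, 15 and 62 counts and was 4.11-fold (2.37 to 7.98) higher on day 9 than on day 6. Ccr7, Xcr1, Clec9a and Batf3 had between 0 and 7 counts, and Cd207, the defining marker of Langerhans cells, was not analysed here. General white cell markers (6 of 8) summed to 129, 205, 202 and 219 CPM, and Ptprc, their shared surface phosphatase, had 53, 74, 66 and 72 counts. Laptm5, a lysosomal protein of white cells, had 20, 61, 50 and 37 counts, and Cd53, a tetraspanin of white cells, had 44, 98, 92 and 101. T cell markers (5 of 10) summed to 7.19 to 19.4 CPM. The part of these cells in the class II differences was not tested. Keratinocyte markers (6 of 9) summed to 18117, 14514, 25648 and 19002 CPM on days 0, 3, 6 and 9. Of 5 eligible rows, 3 were lower and 0 higher on day 3 than on day 0, beside 7.88% and 8.54% of all rows. On day 9 against day 0, 1 of 6 eligible rows was higher and 2 lower, beside 10.7% and 10.4% of all rows. These rows did not move alike, so their sum is no measure of keratinocytes. Dermal markers (8 of 8) summed to 11148, 52213, 40118 and 37421 CPM, with 7 of 7 eligible rows higher on day 3, beside 8.54% of all rows. On day 6 and day 9 against day 0, 4 and 5 of 7 eligible rows were higher, beside 7.48% and 10.7% of all rows. Not all of these rows were lowest on day 0. The day 0 library thus had the least dermal signal in sum, and every comparison with day 0 carries this difference. Its part in the values of the histocompatibility rows was not tested.

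**Figure D4:**
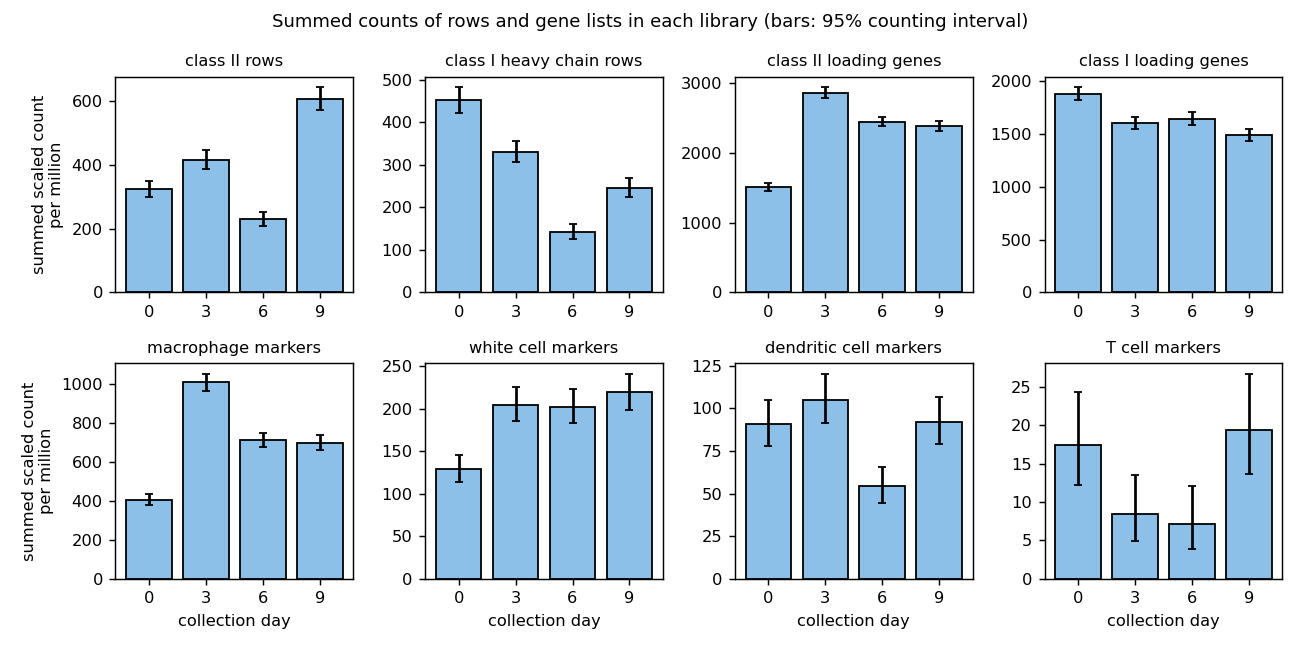
Bars give the summed CPM (vertical axis, from 0) of 8 groups of genes on each collection day, with 95% counting intervals. Class II rows peak on day 9 (607 CPM), while class II loading genes (2867) and macrophage markers (1010) peak on day 3, and class I heavy chain rows are highest on day 0 (452).

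Class II promoters, and many class I promoters, carry a conserved module whose Y box holds the inverted CCAAT sequence bound by the factor NF-Y. Promoters of RefSeq (GRCr8, 250 bases before to 50 after the start) were searched on both strands for CTGATTGG, the form of the Y box known from class II genes. It stood in 7 of the 15 members with a promoter in the table and in 3.50% of all 33469 promoters. The 7 were RT1-Da, RT1-Db1, RT1-Ba, RT1-DOa, RT1-A3, RT1-S3 and RT1-M3-1, the last of them after the start. The shorter ATTGG, which CTGATTGG contains, stood in 14 of 15 and in 37.5% of all. The interferon element, searched as GAAA repeated after 2 further bases of any kind, stood in RT1-N3, RT1-S3 and B2m, and in 3.92% of all. For the 3 class II chains and RT1-A3, the 100 bases from 120 to 21 before the start are given with the match in capitals, on the strand of the gene.
RT1-Da, chr20:4515295-4515394, plus strand: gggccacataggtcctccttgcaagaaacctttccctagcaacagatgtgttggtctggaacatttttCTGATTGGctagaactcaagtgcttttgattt
RT1-Ba, chr20:4576937-4577036, plus strand: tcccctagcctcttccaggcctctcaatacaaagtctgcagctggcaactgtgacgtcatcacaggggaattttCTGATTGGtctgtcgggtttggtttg
RT1-Db1, chr20:4560183-4560282, minus strand: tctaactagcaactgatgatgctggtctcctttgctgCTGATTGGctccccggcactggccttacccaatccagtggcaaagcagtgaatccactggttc
RT1-A3, chr20:4849331-4849430, plus strand: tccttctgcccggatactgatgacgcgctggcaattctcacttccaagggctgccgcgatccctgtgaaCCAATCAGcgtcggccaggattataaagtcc
In the class II chains the match lay on the strand of the gene, beginning 52, 46 and 83 bases before the start of RT1-Da, RT1-Ba and RT1-Db1. In RT1-A3 it lay on the other strand and is read in reverse, and whether it is the Y box of a module there was not tested. A match is a description of the letters and no measure of binding.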

How the data were processed

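The members and gene lists were chosen with earlier results of these data known. A row's deposited count is the sum of the copies of its tags, without those seen once in the library, as the tag lists show. The authors' column headed TPM is a CPM, taken over all tags with at least 2 copies and not adjusted for length, per the file headers and a recalculation. The deposited tag lists give 1 sequenced tag a line, an unscaled listing whose copies were counted here. The assembly was Rnor_6.0, per the submitters' processing notes. Which aligner and annotation were used is not given in the sources used here.

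The 4 libraries held 1952921 to 1982608 gene counts, and of the tags with at least 2 copies, 39.4 to 43.1% belonged to no row. Counts were scaled by the TMM method of edgeR 4.0.16 (factors 0.978 to 1.02). Ratios used a prior count of 0.5, also where a library was at 0, with an exact Clopper-Pearson interval from both counts. A floor of 3 counts for a library at 0 entered no ratio, interval or call. With 1 library a day neither edgeR nor DESeq2 could estimate the spread between animals, so no p-value is given. In counts simulated for day 3 against day 0 over 18957 rows, the rule called 49 of 50 rows at 2.5-fold and 1 of 50 at 1.5-fold. Because variation among rats could not be estimated, these numbers do not give the accuracy of the rule across rats. The rows given a change were drawn only from rows with a mean well above 50 counts. Rows near 50 counts were left out, so the accuracy of the rule for them was not tested. Named genes were all members, the 5 rows nearest in pattern to B2m and, of each list, the 2 to 4 rows furthest apart with at least 50 counts. Ctsb, Ctsd, Ctss, Cd63, Hspa1b, Agpat1 and LOC688090 fall outside this rule and were named after their values were seen. Cd207, Ciita, Ptprc, Cd68, Tap1, Psmb8, Psmb9 and Irf1 were always named. Nlrc5 was not analysed here, some items are not reported here, and the lists for keratinocytes, dermis and muscle are given by their sums. Alternatives covered the scaling (DESeq2 1.42.0 among them), the least count, the prior count, the interval, single tags and the authors' value. Promoter sequences are those of RefSeq for GRCr8, another build than that of the files.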

Additional observations from a re-analysis of the deposited data

Results flagged for a closer look

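In the tag lists, 1 tag that stood in no row lay 1 base from the position 1 tag of RT1-CE7 (C19G, counted from 1 at the 5' end). It had 170, 299, 250 and 428 copies on days 0, 3, 6 and 9, above the 3 copies that a count of 0 allows, and more in each library than RT1-CE7 itself (16, 6, 0 and 9 counts). It was 2.64-fold (2.21 to 3.18) higher on day 9 than on day 0 and 1.16-fold (0.974 to 1.37) lower on day 6 than on day 3. RT1-A3, which the tables do count, was lower on day 9 than on day 0. Which gene the tag comes from was not tested. The base that differs is in capitals.
RT1-CE7, position 1: catgaagacagctgcctgCag
Tag in no row: catgaagacagctgcctgGag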

How the results depend on the processing

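No paired analysis was possible because each day has 1 library. Of 540 member ratios under the alternatives, 512 stayed within the counting interval of the reported value, 28 did not and 0 of the called ones reversed. Many of the 512 could not move. The least count and the width of the interval enter the call and not the ratio, and counting RT1-Db1 from position 3 changes that row alone. Counts of members past the rule (0, 2, 2, 2 and 4 for day 3, 6 and 9 against day 0, day 6 against day 3 and day 9 against day 6) stayed within 1.5 times of these under the other scalings, a prior count of 5 and a 99% interval. The most abundant tag alone gave 2 on day 3 against day 0 (RT1-S3 and RT1-Db1, higher), 1 on day 9 against day 0 (RT1-Db1) and 4 on day 6 against day 3. Tags found in all 4 libraries gave 1, 1 and 4 in the same comparisons, and the authors' value gave 4 on day 6 against day 3. A least count of 10 gave 4 for day 6 against day 0 and 4 against day 3, a least count of 200 gave 1 and 1, and none gave 4 and 5, as more or fewer rows were eligible. The cause of the other changes was not tested. With RT1-Db1 counted from position 3 alone, an alternative added after the data were seen, no count moved by more than 1.5 times. Of all called rows, 52% were higher on day 3 than on day 0 by counts, against 63.2% under the authors' CPM. For day 6 against day 3 these shares were 29.9% and 16.8%. For rows under 50 counts the counting intervals are wide.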

Other observations

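Some genes of the histocompatibility region that present no antigen also had tags that differed between the libraries, in most cases between days 0 and 3 on one side and days 6 and 9 on the other. Ddx39b, an RNA helicase gene, had 467, 481, 5 and 6 counts on days 0, 3, 6 and 9, and its main tag had 458, 477, 0 and 0 copies. Abhd16a, a lipase gene, had 0, 0, 114 and 75 counts. Gnl1, a GTPase gene, had 105, 29, 0 and 0 counts. Hspa1b, an inducible heat shock protein 70 gene, had 881, 637, 472 and 360 counts, of which a position 1 tag with 0, 0, 97 and 61 copies appeared on days 6 and 9 only. Agpat1, an acyltransferase gene, had 56, 76, 46 and 66 counts, mostly in 2 position 1 tags, with 56, 76, 0 and 39 copies of one and 0, 0, 44 and 25 of the other. In this split, which the first of these Agpat1 tags did not follow on day 9, they resemble the position 1 tag of RT1-Ba (0, 0, 171 and 216 copies). The genes were chosen after their values were seen. By the rule on absent tags, 2 of 24 such rows with at least 30 counts in each library passed (8.33%), Hspa1b and Agpat1. Of all rows with these counts, 78 of 4982 (1.57%) passed. Ddx39b, Abhd16a and Gnl1 fell below 30 counts in some library.

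Among costimulatory molecules, 3 of 8 were found and Icam1, an adhesion molecule bound by T cells, was 3.68-fold (2.41 to 5.95) higher on day 9 than on day 0, with 27, 47, 51 and 96 counts. Cd40 and Cd83 had at most 5 counts. Of class I-like molecules, 5 of 9 were found. Fcgrt, the neonatal Fc receptor, which also pairs with B2m, had 111, 164, 60 and 80 counts and was 2.63-fold (1.95 to 3.61) lower on day 6 than on day 3.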
